A study of Rattus norvegicus with 8 samples.

Results

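The genes described here are 5 regulators at the end of the cyclic AMP pathway: the transcription factors Crem and Creb1, the kinase Sik1, and the coactivators Crtc2 and Crebbp. They were chosen by gene symbol from the deposited expression values, in which each RefSeq transcript has a value of its own, and they account for 7 of 16932 transcripts and 5 of 16462 gene symbols. Crem and Creb1 have 2 transcripts each and the other genes 1. All 7 passed the filter on low values (at least 1 FPKM in at least 2 libraries), which 9960 transcripts passed; FPKM is the number of sequenced fragments scaled to transcript length and library size.

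Pineal glands of Sprague-Dawley rats, which carried no genetic change or treatment that the labels name, were sampled on embryonic day 21 (E21) and, after birth, on postnatal days 5 (P5), 20 (P20) and 40 (P40). At each age glands were collected at mid-night (zeitgeber time 19) and at mid-day (zeitgeber time 7) of a lighting cycle with 14 h light and 10 h dark. Each of the 8 libraries was RNA from pooled glands: 15, 19, 10 and 3 animals at mid-night and 13, 17, 13 and 3 animals at mid-day, from E21 to P40. With 1 pool for each age and time, no spread between animals is known.

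In the adult rat pineal gland, norepinephrine released at night from sympathetic nerves raises cyclic AMP, which activates protein kinase A (PKA). PKA phosphorylates the CREB protein on DNA elements known as CREs, and phosphorylated CREB recruits Crebbp and turns on genes that include Aanat, the penultimate enzyme of melatonin synthesis. CRTC proteins are a second class of CREB coactivators, which SIK kinases keep in the cytoplasm. Crem and Sik1 are both targets of CREB and brakes on it: the Crem gene has an internal promoter from which the short repressor ICER (inducible cyclic AMP early repressor) is made, and Sik1 phosphorylates the CRTC proteins.

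The sequences around the start sites are shown because Crem and Sik1 are known CREB targets and were the genes among the 5 that differed between night and day. They are RefSeq sequences of build GRCr8, from 250 bases before a start to 50 after it, 5′ to 3′ on the gene's strand, and capitals mark the full CRE letters TGACGTCA or, outside these, the 5-base cores TGACG and CGTCA, searched on both strands. The reference gives 3 start windows for Crem on chromosome 17: the upstream window at chr17:58933816-58934115, the middle window at chr17:58984547-58984846 and the downstream window at chr17:58985240-58985539, all on the plus strand. The Sik1 window is at chr20:9958597-9958896 on the minus strand, and the upstream Creb1 window, which stands for the factor that binds CREs, is at chr9:73397259-73397558 on the plus strand.
Crem upstream: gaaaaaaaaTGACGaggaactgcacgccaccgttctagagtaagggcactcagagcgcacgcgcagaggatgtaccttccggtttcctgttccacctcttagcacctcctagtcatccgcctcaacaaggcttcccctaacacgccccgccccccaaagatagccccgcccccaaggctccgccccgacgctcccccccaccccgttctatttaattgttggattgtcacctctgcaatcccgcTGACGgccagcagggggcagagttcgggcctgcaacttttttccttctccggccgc
Crem middle: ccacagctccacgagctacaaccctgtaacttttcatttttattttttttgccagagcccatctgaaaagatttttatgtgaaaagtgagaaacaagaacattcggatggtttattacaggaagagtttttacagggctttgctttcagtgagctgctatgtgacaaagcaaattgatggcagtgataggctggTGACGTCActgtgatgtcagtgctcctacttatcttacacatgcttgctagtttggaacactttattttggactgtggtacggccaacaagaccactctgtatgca
Crem downstream: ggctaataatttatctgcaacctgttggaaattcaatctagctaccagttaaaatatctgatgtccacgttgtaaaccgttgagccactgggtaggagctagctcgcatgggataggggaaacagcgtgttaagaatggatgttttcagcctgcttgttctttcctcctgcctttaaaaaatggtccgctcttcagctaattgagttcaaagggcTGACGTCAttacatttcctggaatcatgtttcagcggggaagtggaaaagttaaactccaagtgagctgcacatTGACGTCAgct
Sik1: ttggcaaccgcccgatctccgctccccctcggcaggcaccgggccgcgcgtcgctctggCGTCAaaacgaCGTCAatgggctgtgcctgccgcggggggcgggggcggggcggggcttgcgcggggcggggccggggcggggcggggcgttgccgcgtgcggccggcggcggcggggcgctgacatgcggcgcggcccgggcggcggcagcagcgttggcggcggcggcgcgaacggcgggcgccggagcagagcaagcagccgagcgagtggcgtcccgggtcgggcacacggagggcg
Creb1 upstream: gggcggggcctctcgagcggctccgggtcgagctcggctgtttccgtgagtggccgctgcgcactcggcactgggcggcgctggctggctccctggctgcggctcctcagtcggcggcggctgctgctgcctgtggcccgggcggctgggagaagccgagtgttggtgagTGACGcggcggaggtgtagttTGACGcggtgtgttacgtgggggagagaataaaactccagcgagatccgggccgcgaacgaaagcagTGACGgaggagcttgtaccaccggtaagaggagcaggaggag

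The Crem windows differed in these letters. The downstream window had 2 full CREs, at -35 and 40 bases from the start, and the middle window had 1 at -56. The upstream window had no full CRE and 2 cores, at -241 and -6. The middle and downstream starts lie 50731 and 51424 bases downstream of the upstream start. Of all 33469 windows in the reference, 612 (1.83%) held at least 1 full CRE and 14 (0.0418%) held at least 2. The Sik1 window had 2 CGTCA cores, at -191 and -180, and no full CRE, and 1085 windows (3.24%) held at least 2 cores outside a full CRE. In the upstream Creb1 window there were 3 cores (-80, -59 and 9), the Crtc2 window had 1 (-95), and neither the Crebbp window nor the downstream Creb1 window had any of these letters. A match describes the letters in these windows only, and binding was not measured.

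The deposited values themselves use build rn4, and these coordinates were not converted. In rn4 the longer Crem transcript, NM_001110860, spans chr17:62770632-62837670. The shorter, NM_017334, spans chr17:62822635-62836430, starts 52003 bases inside the longer span and carries the alias Icer in the deposited values. Reads in exons that the transcripts of a gene share can be assigned to either, so the split between them is less certain than their sum.

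The libraries were checked for their tissue and depth. The 8 pinealocyte markers Tph1, Asmt, Crx, Otx2, Lhx4, Bsx, Gngt2 and Aanat were all detected, with a summed level of 2824 to 5430 FPKM in the 6 postnatal libraries and 845 to 884 FPKM at E21. The P5 mid-night library stood apart: 8 choroid plexus genes, of which Otx2 is also a pinealocyte marker, summed to 17827 FPKM there, against 625 to 3139 FPKM in the other 7 libraries. Relative depth ran from 0.423 at P20 mid-day to 1 at P40 mid-night.

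Crem lay below the middle of the tested transcripts at E21 and at mid-day of P20 and P40, and near the top at mid-night of P20 and P40. At mid-night NM_001110860 was at 3.92, 11.9, 42.6 and 85.4 FPKM at E21, P5, P20 and P40, against 4.53, 6.63, 3.52 and 3.79 FPKM at mid-day. The mid-night and mid-day values were close at E21, further apart at P5 and far apart at P20 and P40, where both mid-night libraries were higher than all other libraries. Among the 9960 tested transcripts, its percentile at P40 was 98.02 at mid-night and 38.66 at mid-day. The order from highest was mid-night at P40, P20 and P5, then mid-day at P5, then the E21 libraries and mid-day at P40 and P20, which lay within 3.52 to 4.53 FPKM.

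The ICER-annotated transcript was likewise high at mid-night of P20 and P40, with the ages in a different order. NM_017334 was at 0.250, 1.74, 36.4 and 17.9 FPKM at mid-night, from E21 to P40, against 0.0345, 0.916, 0.468 and 0.976 FPKM at mid-day. It was highest at mid-night of P20, not P40, and under 2 FPKM in the other 6 libraries. Its share of the summed Crem level was 46.1% at P20 mid-night and 17.3% at P40 mid-night, against 11.7% at P20 mid-day and 20.5% at P40 mid-day. At the 4 E21 and P5 libraries the share lay between 0.756% and 12.8%. The summed Crem level was 78.9 and 103 FPKM at mid-night of P20 and P40, against 3.98 and 4.77 FPKM at mid-day.

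Sik1, the salt-inducible kinase, had the largest night effect of the 7 transcripts over P20 and P40 together. NM_021693 (rn4 chr20:10282202-10291735) was at 2.02, 6.09, 33.7 and 61.8 FPKM at mid-night from E21 to P40, against 2.17, 6.33, 1.07 and 1.03 FPKM at mid-day. The night and day libraries were nearly level with each other at E21 and at P5. At P20 and P40 the mid-night libraries were the highest of the 8 and the mid-day libraries the lowest. The ratio of mid-night to mid-day FPKM was 31.5 at P20 and 60.2 at P40. At each of these ages Sik1 and both Crem transcripts, 3 of the 7, were at least 2-fold higher at mid-night on the log2(FPKM + 1) scale, where 2.44% of tested transcripts at P20 and 3.04% at P40 were; with 1 library a time, a single age has no test.

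**Figure D1:**
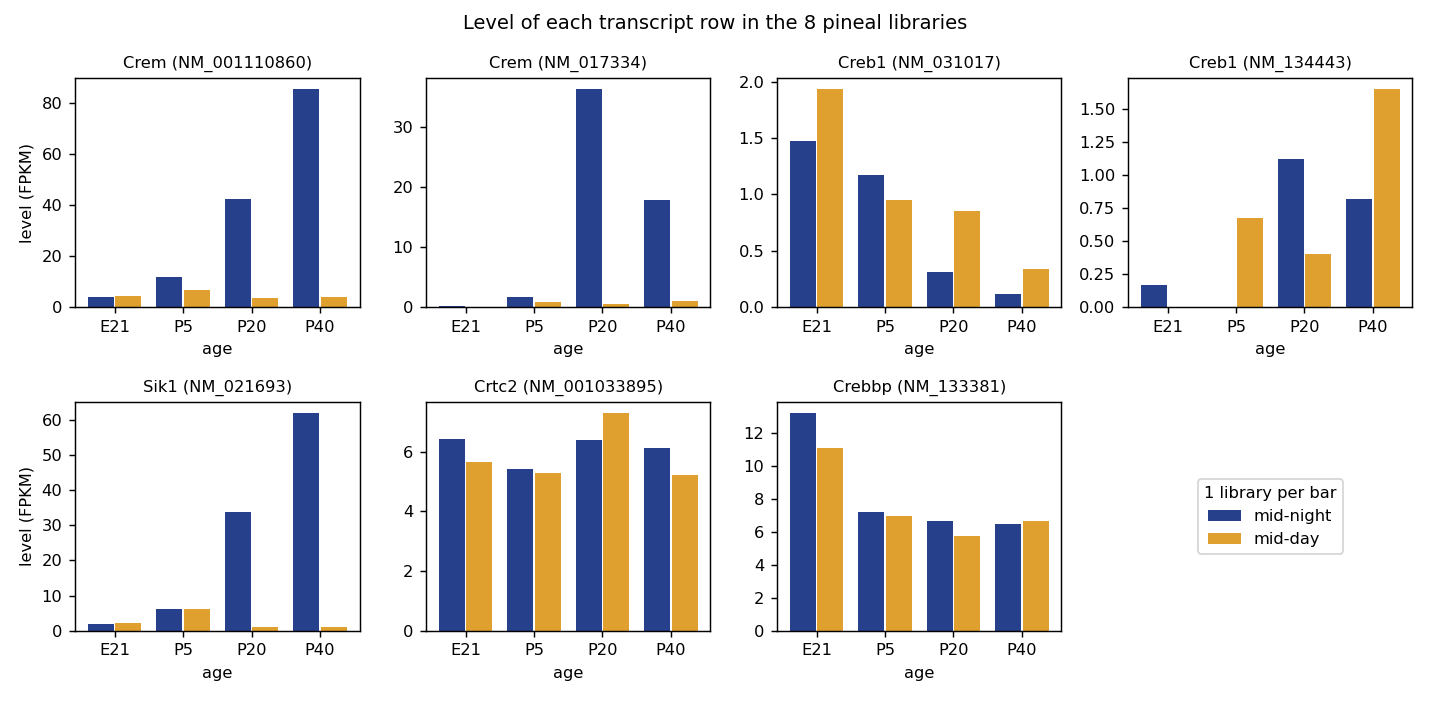
FPKM of each of the 7 transcripts (1 panel each, own vertical axis from 0) at the 4 ages, mid-night bars left of mid-day bars, 1 pooled library per bar. Crem NM_001110860 and Sik1 reach 85.4 and 61.8 FPKM at mid-night of P40, against 3.79 and 1.03 FPKM at mid-day, while the Crtc2 and Crebbp bars of an age lie close together.

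The night effect was tested with limma on log2(FPKM + 1), with 1 night effect for P20 and P40 together and 1 for E21 and P5 together. The 2 ages of a pair thus stand in for replicates. The adjusted p-values rest on how the night difference varied between them and on a variance that limma shares over all tested transcripts. They do not measure a spread between animals. On this scale differences of transcripts near or under 1 FPKM are understated. At P20 and P40, 3 of the 7 transcripts passed (Benjamini-Hochberg adjusted p under 0.05 over all 9960), each higher at mid-night, where 2.8% of all tested transcripts were higher and 1.59% lower. The median of all tested transcripts was -0.11.

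Crem NM_001110860 rose by 3.72 ± 0.28 (log2, SE; limma adjusted p = 0.000855), and NM_017334 rose by 3.96 ± 0.31 (limma adjusted p = 0.000888). NM_017334 reached 1 FPKM only at mid-night of P5, P20 and P40. It thus passed the filter only through mid-night libraries, where it is high. Sik1 rose by 4.51 ± 0.22 (limma adjusted p = 0.000134), a 22.8-fold difference on this scale. From the highest, Sik1 was number 7 of the 9960 night effects, NM_017334 number 9 and NM_001110860 number 11. The 2 Crem transcripts summed rose by 4.09 ± 0.22 (limma adjusted p = 4.89e-05). Each of the 3 effects was higher at mid-night in both ages. Without a P20 or P40 library, each estimate is the difference of the other age alone. These were 3.27 at P20 and 4.17 at P40 for NM_001110860, 4.67 and 3.26 for NM_017334, and 4.07 and 4.95 for Sik1. Each effect stayed past the threshold without any single E21 or P5 library, which leaves its estimate unchanged.

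The summed level of the 8 pinealocyte markers was 4057 and 5430 FPKM at mid-night of P20 and P40, against 3628 and 4316 FPKM at mid-day. Without Aanat, itself a night-higher gene, the other 7 summed to 3485 and 5109 FPKM at mid-night, against 3622 and 4315 FPKM at mid-day, so the direction of the sum differed between the ages. Tph1, the highest of them, was lower at mid-night at both ages (1930 and 2525 FPKM, against 2350 and 2756 FPKM). Asmt, Crx, Otx2, Lhx4, Bsx and Gngt2 were each higher at mid-night at both ages, though Asmt was nearly level at P20 (206 against 204 FPKM). The 8 choroid plexus genes summed to 882 and 1002 FPKM at mid-night, against 625 and 676 FPKM at mid-day. Without Ttr and Otx2 the other 6 summed to 11.5 and 9.88 FPKM at mid-night, against 7.31 and 10.1 FPKM at mid-day, again with different directions. Fibroblast genes (125 and 93.6 FPKM at mid-night, against 146 and 128 FPKM at mid-day) and endothelial genes (12.6 and 12.01 FPKM, against 14.4 and 15.8 FPKM) were lower at mid-night at both ages. The sums of the other 7 marker lists went in different directions at P20 and P40; the erythroid sum was 1868 and 1517 FPKM at mid-night, against 4366 and 1239 FPKM at mid-day. Their part in the night effects was not tested. In bulk RNA of a gland, fewer cells of a type and less RNA per cell cannot be told apart.

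At E21 and P5 none of the 7 transcripts passed the test of the night effect (limma adjusted p = 0.999 for each), and 3 of all 9960 tested did (0.0301%). The estimate was 0.29 for NM_001110860 (95% interval -0.36 to 0.95), 0.39 for NM_017334 (-0.32 to 1.11) and -0.06 for Sik1 (-0.58 to 0.46). The Crem value came mostly from P5, where NM_001110860 had 1.79 times as much FPKM at mid-night as at mid-day, under a 2-fold difference on the log2(FPKM + 1) scale. At P5, 1.55% of tested transcripts were at least 2-fold higher at mid-night. The choroid plexus genes differed between the same libraries, with a sum of 17827 FPKM at mid-night and 3139 FPKM at mid-day of P5 and Ttr at 17323 and 2889 FPKM. All 8 of the choroid plexus genes were detected in both P5 libraries, and the part of this tissue in the P5 Crem values was not tested.

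The difference between the night effects, P20 and P40 minus E21 and P5, was tested directly. It passed for 3 of the 7 transcripts, all positive, where 0.612% of all tested transcripts passed in that direction. The difference was 4.57 ± 0.32 for Sik1 (log2, SE; limma adjusted p = 0.00208), 3.43 ± 0.40 for Crem NM_001110860 (adjusted p = 0.0189) and 3.57 ± 0.43 for NM_017334 (adjusted p = 0.0207). Here too NM_017334 entered the test only through mid-night libraries, where it is high. The Sik1 call held without each of the 8 libraries in turn, though each such fit takes the night effect of an age pair from a single age. The Crem calls did not: without the E21 mid-night, E21 mid-day, P5 mid-night or P5 mid-day library the limma adjusted p was 0.119, 0.114, 0.0623 and 0.0554 for NM_001110860, and 0.121, 0.117, 0.108 and 0.0992 for NM_017334, with differences of 2.97 to 3.89 and 3.45 to 3.69. Without both P5 libraries the difference was 3.89 for NM_001110860 (adjusted p = 0.0509), 3.69 for NM_017334 (0.0934) and 4.58 for Sik1 (0.0329).

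**Figure D2:**
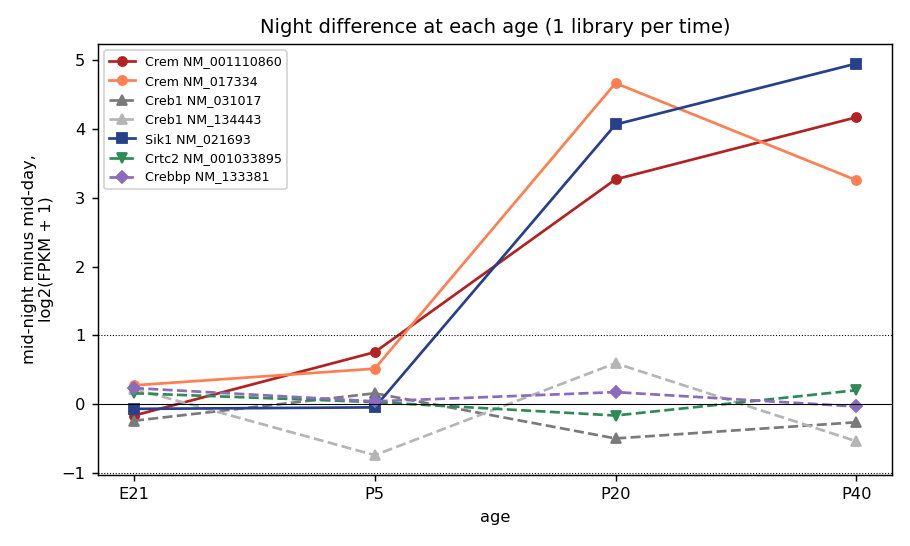
Mid-night minus mid-day log2(FPKM + 1) of the 7 transcripts at each age (1 library per time, no error), with dotted lines at 2-fold. The Sik1 line and both Crem lines are within 1 of 0 at E21 and P5 and above 3 at P20 and P40, while the lines of the other genes stay within 1 of 0 at every age.

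**Figure D3:**
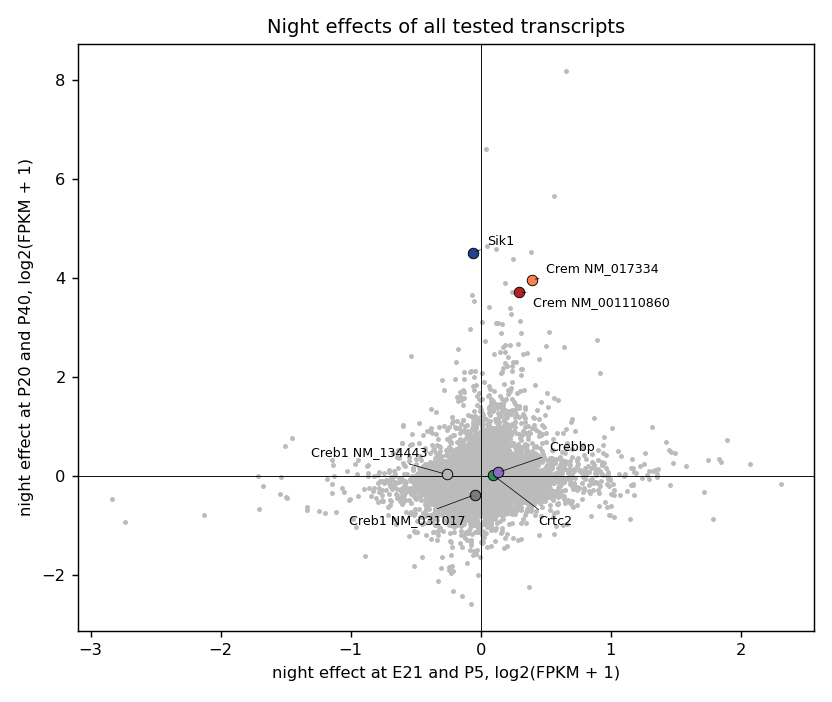
Night effect at P20 and P40 (vertical, log2) against that at E21 and P5 (horizontal, log2), with 1 grey point for each of the 9960 tested transcripts and the 7 transcripts named. Sik1 and both Crem transcripts lie at 3.72 to 4.51 on the vertical axis and between -0.06 and 0.39 on the horizontal one.

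With 1 night effect assumed for all 4 ages, 0 of the 9960 transcripts passed (0%, limma; 1011 had an unadjusted p under 0.05), and the values were 2.01 for NM_001110860, 2.18 for NM_017334 and 2.23 for Sik1, with adjusted p of 0.474 for both Crem transcripts and 0.485 for Sik1. This fit averages the night difference over all 4 ages.

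The coactivators and Creb1 did not pass the night test at any age pair. Crtc2 (NM_001033895, rn4 chr2:182496761-182506348), the CREB-regulated transcription coactivator, was at 6.44, 5.42, 6.39 and 6.14 FPKM at mid-night from E21 to P40, against 5.67, 5.29, 7.30 and 5.21 FPKM at mid-day. The night and day values overlapped, and the whole range over the 8 libraries was 1.40-fold. Its night effect at P20 and P40 was 0.02 with a 95% interval of -0.38 to 0.42 (limma adjusted p = 0.971). Crebbp (NM_133381, rn4 chr10:11598679-11725530), the CREB-binding acetyltransferase, had a night effect of 0.07 at P20 and P40 with an interval of -0.31 to 0.45 (adjusted p = 0.860). The upper ends of these intervals lie under the 3.72 to 4.51 of Crem and Sik1. The Creb1 transcripts gave -0.38 (-0.82 to 0.05, adjusted p = 0.307) for NM_031017 and 0.03 (-0.71 to 0.77, adjusted p = 0.975) for NM_134443.

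Crebbp differed by age instead. It was at 13.2, 7.20, 6.65 and 6.47 FPKM at mid-night from E21 to P40, against 11.1, 6.98, 5.78 and 6.65 FPKM at mid-day. Both E21 libraries were above all 6 later libraries, which lay within 5.78 to 7.20 FPKM. Crebbp fell by 0.79 ± 0.17 at P40 against E21 (log2, SE; limma adjusted p = 0.00785) and by 0.70 ± 0.17 at P5 against E21 (adjusted p = 0.0320), where the median of all tested transcripts was -0.18 and -0.04. The tests at P20 against P5 (-0.17, adjusted p = 0.601) and P40 against P20 (0.07, adjusted p = 0.992) did not pass; 7.02% and 0% of all tested transcripts passed these (limma; 669 had an unadjusted p under 0.05 at P40 against P20). Background calls were frequent for the first comparison: 26.8% of tested transcripts were lower at P40 than at E21 and 16.1% higher, and 6.84% were lower at P5 than at E21. The P40 call was lost without the E21 mid-night (adjusted p = 0.0621) or the P40 mid-night library (0.0803), and the P5 call was lost without any of the E21, P5 or P40 libraries (0.0575 to 0.168).

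Markers of dividing cells and fibroblasts were also lower at P40 than at E21, and the sum of the pinealocyte markers was higher. Summed over 3 markers of dividing cells, the level was 1.85 and 1.73 FPKM at mid-night and mid-day of P40, against 65.8 and 86.9 FPKM at E21. The 5 fibroblast genes summed to 93.6 and 128 FPKM at mid-night and mid-day of P40, against 1044 and 678 FPKM at E21, and the 8 pinealocyte markers to 5430 and 4316 FPKM, against 845 and 884 FPKM. Single pinealocyte markers went both ways. Tph1, Asmt, Lhx4 and Gngt2 were higher at P40 at both times, and Crx, Bsx and Aanat were higher at mid-night and lower at mid-day. Otx2 was lower at both times (218 and 134 FPKM, against 267 and 274 FPKM). The part of the changing cell makeup in the age results was not tested.

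Creb1, the cyclic AMP response element binding protein, was low throughout, and its 2 transcripts had age differences of opposite sign, while the test of their sum did not pass. NM_031017 (rn4 chr9:63170784-63234727) was at 1.48, 1.17, 0.312 and 0.113 FPKM at mid-night from E21 to P40, against 1.93, 0.950, 0.856 and 0.337 FPKM at mid-day. NM_134443 (rn4 chr9:63188480-63234705), which starts 17696 bases inside the other and ends 22 bases before it, was at 0.166, 0.000141, 1.12 and 0.822 FPKM at mid-night, against 0, 0.675, 0.404 and 1.65 FPKM at mid-day. NM_031017 was higher in both E21 libraries than in all others, and its 3 lowest values were in both P40 libraries and at P20 mid-night. The 3 highest values of NM_134443 were in those same libraries.

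NM_031017 fell by 1.14 ± 0.20 at P40 against E21 (log2, SE; limma adjusted p = 0.00354) and NM_134443 gave 1.02 ± 0.32 (adjusted p = 0.0345). NM_031017 reached 1 FPKM only in both E21 libraries and at P5 mid-night. It thus passed the filter only through libraries of the younger ages, where it is high. NM_134443 reached 1 FPKM in only 2 libraries, P20 mid-night and P40 mid-day, so it passed the filter only through libraries where it is high. Its call was lost with no filter (limma adjusted p = 0.0659) and in mid-day levels fitted with 2 night effects (0.88, adjusted p = 0.114). The summed level was 0.935 and 1.99 FPKM at mid-night and mid-day of P40, against 1.64 and 1.93 FPKM at E21, and its difference of -0.21 (95% interval -0.70 to 0.28) did not pass (limma adjusted p = 0.446). NM_134443 made up 87.9% and 83.1% of the sum at P40, against 10.1% and 0% at E21. The fall of NM_031017 passed without each of the 8 libraries, while the NM_134443 call was also lost without the E21 mid-night (adjusted p = 0.0561), E21 mid-day (0.178) or P40 mid-night library (0.0540). Without P20 mid-night or P40 mid-day NM_134443 did not pass the filter and was not tested, so its call held in 3 of 6 such fits. At these levels the assignment of shared reads and the depth limit both values; the P20 mid-day library had the lowest relative depth, 0.423 of that of P40 mid-night.

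**Figure D4:**
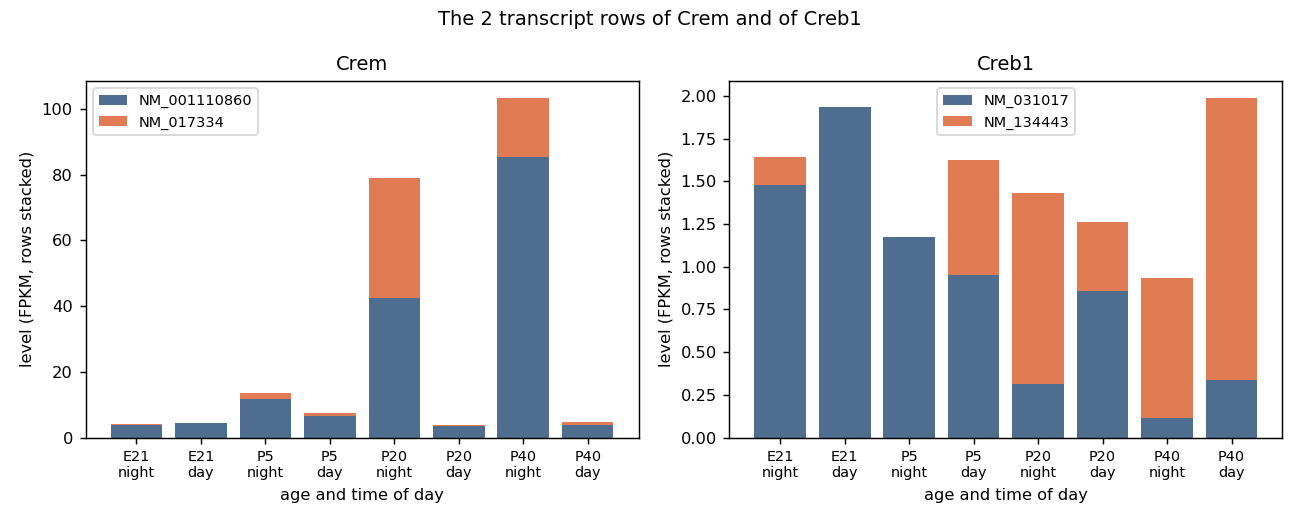
FPKM of the 2 transcripts of Crem (left) and of Creb1 (right), stacked, in each library, mid-night left of mid-day at each age. The ICER-annotated Crem transcript makes up 46.1% of the bar at P20 mid-night and 17.3% at P40 mid-night, and NM_134443 makes up 87.9% and 83.1% of the Creb1 bars at P40.

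Over both times together, no age test passed for Crem or Sik1 at the pseudocount of 1. At P40 against E21 the values were 1.96 ± 0.91 for NM_001110860 (limma adjusted p = 0.118), 2.43 ± 0.95 for NM_017334 (0.0736) and 1.87 ± 1.18 for Sik1 (0.233). Leaving out a library moved some Crem values past the threshold: NM_001110860 gave 3.41 without the E21 mid-day library (adjusted p = 0.0185) and 3.41 without P40 mid-day (0.0265), and NM_017334 gave 3.70 without E21 mid-day (0.0258) and 2.43 without P20 mid-day (0.0308) or P20 mid-night (0.0301). At a pseudocount of 0.1, NM_017334 passed at 4.34 (adjusted p = 0.0143) and in the age F test (0.0363), which it also passed without P20 mid-day (0.0322). NM_017334 entered all of these tests only through mid-night libraries after birth, where it is high. The age F test passed for Creb1 NM_031017 (adjusted p = 0.0137) and Crebbp (0.0158), 2 of the 7 transcripts, and for 36.4% of all tested. The Crebbp call was lost without the E21 mid-night (adjusted p = 0.145) or E21 mid-day library (0.0758), and that of NM_031017 without either E21 library or either P40 library (0.0523 to 0.0609). The Crem and Sik1 averages join mid-night and mid-day libraries that went different ways, so the ages were also compared at each time with the fit that has 2 night effects, a comparison chosen after the values were seen.

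At mid-night, both Crem transcripts and Sik1 were higher at P40 than at E21. The values here are differences of fitted levels, with a night effect shared by the ages of a pair, and not the differences between single libraries. The fitted differences were 3.68 ± 0.34 for NM_001110860 (log2, SE; limma adjusted p = 0.000259), 4.21 ± 0.38 for NM_017334 (0.000223) and 4.15 ± 0.28 for Sik1 (8.26e-05), where 14.8% of tested transcripts were higher. NM_017334 entered the tests of this paragraph only through mid-night libraries of P5, P20 and P40, where it is high. At mid-day, where 36.1% of all tested transcripts passed in either direction, none of the 3 passed: 0.25 (adjusted p = 0.601), 0.64 (0.216) and -0.42 (0.270). At P20 against P5, the mid-night levels were higher by 2.22 ± 0.34 for NM_001110860 (adjusted p = 0.00910) and 3.48 ± 0.38 for NM_017334 (0.00276), and the mid-day levels, which did not pass, gave -1.21 ± 0.34 (0.0961) and -0.09 ± 0.38 (0.921). Sik1 was higher at mid-night, by 2.52 ± 0.28 (adjusted p = 0.00285; 2.35% of tested transcripts were higher), and lower at mid-day, by -2.05 ± 0.28 (adjusted p = 0.0110; 3.82% were lower).

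Before this age Sik1 was at 6.09 and 6.33 FPKM at mid-night and mid-day of P5, against 2.02 and 2.17 FPKM at E21, with no overlap between the ages. The difference was 1.22 ± 0.22 in the fit with 2 night effects (log2, SE; limma adjusted p = 0.00874; 11.9% of tested transcripts were higher) and 1.22 ± 1.18 in the fit with a single night effect (adjusted p = 0.521). For the Crem transcripts the fit with 2 night effects gave 0.93 (adjusted p = 0.0516) and 1.01 (0.0519). Their sum, at 1.06 ± 0.22, passed in that fit (limma adjusted p = 0.0103), where 1246 of 9748 genes with summed transcripts were higher. In the fit with a single night effect the sum gave 1.06 ± 0.95 (limma adjusted p = 0.484).

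The profiles nearest to Crem and Sik1 were compared over the 8 libraries, as a description. Of 5616 transcripts with a mean of at least 5 FPKM, those with the highest Pearson r to Crem NM_001110860 on the log2 scale were Irs2 (0.992), Bsx (0.988), Rlim (0.984), Sik1 (0.983) and Fbxo33 (0.983). Irs2 is an insulin receptor substrate, Bsx a homeobox factor of the pineal gland and hypothalamus, Rlim a ubiquitin ligase and Fbxo33 an F-box protein. For Sik1 they were Irs2 (0.993), Dusp1 (0.991), Crem NM_001110860 (0.983), Rhob (0.981) and Rlim (0.978); Dusp1 is a phosphatase of MAP kinases and Rhob a small GTPase. All of these transcripts were highest at mid-night of P40 and then of P20, and each r was taken over the same 8 libraries, whose depth and cell makeup they share.

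Aanat, the CREB target by which the gland is best known, was less like them than these. It was at 9.45, 225, 572 and 321 FPKM at mid-night from E21 to P40, against 13.5, 153, 6.21 and 1.72 FPKM at mid-day, with r of 0.825 to Crem NM_001110860 and 0.882 to Sik1. Its P5 levels were high at both times, and its highest library was P20 mid-night, like that of the ICER-annotated transcript.

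The other genes of the pathway were followed in lists by role, each gene by its transcript of highest mean FPKM. Of 93 list genes tested, Crem and Sik1 among them, 21 were higher at mid-night of P20 and P40 and 0 lower (limma; the background above was 2.8% and 1.59%). These lay almost wholly in the list of CREB targets, in which 18 of 24 rose and 0 fell, with a median of 2.53 against -0.11 over all tested transcripts. Of the 18, Dio2, Nr4a3 and Pde4d reached 1 FPKM only at mid-night. They thus passed the filter only through libraries where they are high, which adds to the count and the median. The list holds Crem and Sik1 themselves and other textbook targets, several of which are known from this gland. It was also chosen with earlier results of these data known, so it is not independent of the night difference.

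Among the targets, the 4 of highest mean FPKM that rose were Aanat (6.60 ± 0.28, log2 and SE; limma adjusted p = 0.000134), Scg2, a secretory granule protein (1.55 ± 0.27, adjusted p = 0.0208), Gem, a small GTPase (2.42 ± 0.42, adjusted p = 0.0214), and Dusp1 (4.58 ± 0.32, adjusted p = 0.000675). Dusp1 was at 2.37, 9.39, 47.4 and 102 FPKM at mid-night from E21 to P40, against 1.86, 9.41, 2.48 and 1.50 FPKM at mid-day, so that the highest and the lowest library were those of Sik1. Scg2 had a different course: 32.2, 73.1 and 152 FPKM at mid-night of P5, P20 and P40, against 21.5, 21.3 and 58.7 FPKM at mid-day, so that it was highest at P40 at both times of day.

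The enzymes and factors upstream of these targets mostly did not pass the night test. In the PKA list, which holds catalytic and regulatory subunits, inhibitors and anchoring proteins, 0 of 16 passed, and in the coactivator list 0 of 6. In the CREB and ATF family 1 of 13 rose, Crem itself, and Atf1, the closest relative of Creb1 and Crem in the list, gave 0.30 ± 0.19 (limma adjusted p = 0.423). Crtc1, the relative of Crtc2, which the deposited values name Mect1, gave -0.19 ± 0.17 (adjusted p = 0.578). Sik2, Sik3, Crtc3 and Ep300 were not analysed here.

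Beside Crem and Sik1, 3 genes of the regulator lists rose at night. Stk11, the kinase LKB1 that activates SIK and AMP-activated kinases, rose by 1.31 ± 0.23 (limma adjusted p = 0.0214), 1 of 2 with Sik1 among 9 tested in its list. It was at 7.87, 10.0, 16.2 and 20.5 FPKM at mid-night from E21 to P40, against 8.83, 6.96, 7.78 and 5.83 FPKM at mid-day. Camk1g, a calmodulin-dependent kinase, rose by 2.56 ± 0.26 (adjusted p = 0.00248), 1 of 16 other CREB kinases. It was at 67.2 and 65.0 FPKM at mid-night of P20 and P40, against 12.8 and 8.40 FPKM at mid-day. Rcan1, an inhibitor of the phosphatase calcineurin, rose by 2.51 ± 0.24 (adjusted p = 0.00197), 1 of 11 in the phosphatase list, with 50.3 and 100.3 FPKM at mid-night of P20 and P40, against 11.6 and 11.8 FPKM at mid-day.

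**Figure D5:**
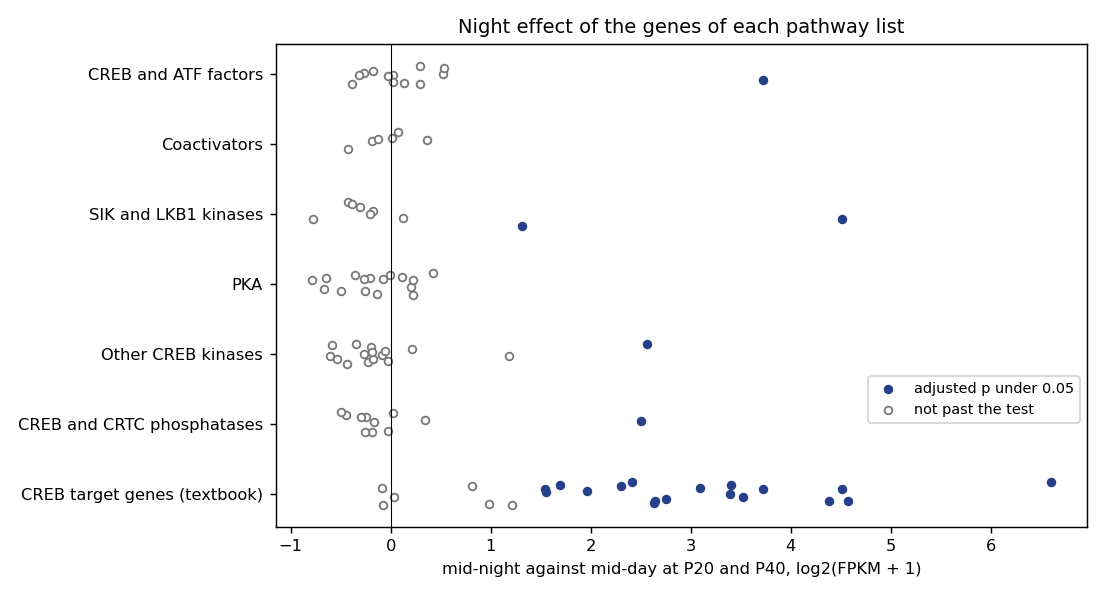
Night effect at P20 and P40 (log2(FPKM + 1), horizontal) of each tested gene in the 7 pathway lists, filled where the adjusted p was under 0.05. In the list of CREB targets, which holds Crem and Sik1 too, 18 of 24 points are filled, all right of 0. Dio2, Nr4a3 and Pde4d among them passed the filter only through mid-night libraries. In the PKA and coactivator lists none of 16 and none of 6 is.

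With age, the lists changed in both directions, at P40 against E21 as elsewhere in the transcriptome (16.1% higher and 26.8% lower). In the CREB and ATF family 1 of 13 rose and 6 fell, with a median of -0.52 against -0.18 over all tested transcripts. Crebl2, a small bZIP protein, rose by 2.08 ± 0.25 (limma adjusted p = 0.000614). Creb3 (-0.81 ± 0.28, adjusted p = 0.0485), Creb3l2 (-0.52 ± 0.18, 0.0485), Atf2 (-0.64 ± 0.21, 0.0394) and Atf7 (-0.79 ± 0.19, 0.0130) fell. With each library centred on its median, 2 rose and 3 fell, with no reversal of a direction. Creb1 counts among those that fell by NM_031017 alone, since its 2 transcripts summed did not pass.

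In the coactivator list 1 of 6 rose, the nuclear receptor coactivator Ncoa2 (0.88 ± 0.18; limma adjusted p = 0.00645), and 1 fell, Crebbp. In the SIK and LKB1 list 1 of 9 rose, the catalytic AMP-activated kinase subunit Prkaa2 (0.92 ± 0.22, adjusted p = 0.0132). In the PKA list 5 of 16 rose and 1 fell. The regulatory subunits Prkar2b (0.78 ± 0.23, adjusted p = 0.0268) and Prkar2a (0.56 ± 0.17, 0.0312), the anchoring protein Akap11 (0.60 ± 0.17, 0.0261) and the inhibitor Pkia (0.79 ± 0.20, 0.0164) rose. Akap12, an anchoring protein with 2 transcripts, fell by 1.86 ± 0.22 (adjusted p = 0.000589).

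Of the other CREB kinases 2 of 16 rose, the CaM kinase subunits Camk2b (1.26 ± 0.24; limma adjusted p = 0.00466) and Camk2d (0.75 ± 0.22, 0.0296), and 3 fell: Akt1 (-0.65 ± 0.18, 0.0232), Camkk1 (-0.76 ± 0.19, 0.0138) and Rps6ka6 (-0.99 ± 0.19, 0.00429). In the phosphatase list 3 of 11 rose, the catalytic subunit Ppp1cc (1.28 ± 0.23, adjusted p = 0.0033), Rcan1 (1.89 ± 0.64, 0.0455) and the inhibitor Ppp1r1b (1.66 ± 0.47, 0.0232), and Ppp1ca fell (-0.84 ± 0.22, 0.0179). Ppp1r1b was also high in the P5 mid-night library with the choroid plexus genes, at 11.5 FPKM against 2.53 FPKM at P5 mid-day.

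Of the CREB targets 8 of 24 rose and 1 fell at P40 against E21, with a median of 1.84. The 4 of highest mean FPKM that rose were the granule proteins Chga (3.95 ± 0.25; limma adjusted p = 4.15e-05) and Scg2 (5.17 ± 0.47, 0.00019), and the cyclic nucleotide phosphodiesterases Pde4b (3.65 ± 0.65, 0.00362) and Pde10a (2.46 ± 0.85, 0.0490). Sst, the hormone somatostatin, fell by 2.29 ± 0.23 (adjusted p = 0.000265). It reached 1 FPKM only at E21 and P5, so it passed the filter only through libraries of the younger ages, where it is high. Among those that rose, Pde4b, Pde4d and Ppargc1a reached 1 FPKM only after birth, so they passed only through libraries where they are high. Chga had no night difference that passed at P20 and P40 (0.04 ± 0.25, adjusted p = 0.960), in contrast to its level by age: 250 and 195 FPKM at mid-night and mid-day of P40, against 12.4 and 14.3 FPKM at E21.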

How the data were processed

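Libraries were made from poly(A)-enriched total RNA with random primers, per the labels' protocols, and read as paired ends. The authors deposited FPKM for each RefSeq transcript, with TopHat 1.3.1, Cufflinks 1.2.0 and build rn4 named in the submitters' processing notes; filters and scaling are not given in the sources used here, and the read totals were not used here. Relative depth was taken from a low quantile of FPKM times genomic length over short olfactory receptor transcripts above 0. Only 13 to 26 such transcripts entered in a library, so it is a rough guide. With no counts no counting interval is given. Between 8598 and 9533 transcripts reached 1 FPKM in a library.

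From these, log2(FPKM + 1) was fitted for the 9960 transcripts that reached 1 FPKM or more in 2 or more libraries, by limma 3.58.1 (R 4.3.3, trended eBayes, two-sided tests, Benjamini-Hochberg adjustment over all 9960), first with age and time of day (3 residual degrees of freedom), then with age and separate night effects for E21 with P5 and for P20 with P40 (2 residual degrees of freedom). The fits were tested on simulated data. Single ages have no test.

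The members, the lists, the pairing of ages and the rule for named genes (every member, and from each list up to 4 genes of highest mean FPKM past the test each way, with the members' relatives) were chosen with earlier results of these data known. Genes were matched by symbol or by gene ID. Alternatives covered a pseudocount of 0.1 or 5, a filter at 5 FPKM or none, quantile normalization, median centring, robust eBayes, transcripts summed per gene, and libraries left out. Levels by time of day were added after the data were seen.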

Additional observations from a re-analysis of the deposited data

Results flagged for a closer look

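The night effect (log2 of FPKM + 1, mid-night against mid-day) at P20 and P40 differed from that at E21 and P5, by the limma test of the difference itself, for 12 of 93 list genes tested, Crem and Sik1 among them, and for Crem NM_017334, where 0.612% of all tested transcripts passed in that direction. The differences of the members were 4.57 for Sik1 (adjusted p = 0.00208), 3.43 for Crem NM_001110860 (0.0189) and 3.57 for NM_017334 (0.0207). NM_017334 passed the filter only through mid-night libraries, where it is high. Both Crem calls were lost without any of the 4 E21 and P5 libraries, and over all transcripts, in either direction, 75 passed as reported, 7 to 11 without a single E21 or P5 library and 0 with no filter. Among CREB targets they were 6.56 for Aanat, 4.46 for Dusp1, 4.14 for Irs2, 3.58 for Nr4a1, 3.17 for Pde10a, 2.45 for Pde4b, 2.09 for Mat2a and 1.86 for Egr1. In the kinase and phosphatase lists they were 2.74 for Camk1g and 2.36 for Rcan1. Adjusted p ranged from 0.00208 to 0.0311 over these, and each night effect at P20 and P40 was the higher.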

How the results depend on the processing

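The late night effects of Sik1 and both Crem transcripts passed the test under every alternative run, though without a P20 or P40 library each effect comes from a single age. No paired analysis was possible because the groups share a single replicate number; age is a term of both fits, so each night difference is already taken within an age.

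The count for the late night effect was 105 transcripts with no filter (437 as reported). The difference of night effects gave 37 at a pseudocount of 5, 0 with no filter and 14 without both P5 libraries (75 as reported), and the early night effect gave 0 at a pseudocount of 5, with no filter, at 5 FPKM, with median centring and without P5, and 1 with quantile normalization (3 as reported). P20 against P5 gave 397 at a pseudocount of 5, 373 with no filter, 372 at 5 FPKM and 1222 from mid-night levels (699), P40 against P20 gave 1 at a pseudocount of 0.1 (0), and at 5 FPKM the age test gave 2322 (3629) and P40 against E21 2838 (4276). With a library left out the counts were 166 to 363 for the late and 0 to 7 for the early night effect, 7 to 69 for their difference, 0 over 4 ages, 2277 to 3349 for age, 2323 to 4250 for P40 against E21, 436 to 1439 for P5 against E21, 35 to 753 for P20 against P5 and 0 to 1 for P40 against P20.

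The difference of Crem NM_001110860 was 3.43 (adjusted p = 0.228) with no filter and 3.89 (0.0509) without P5. That of NM_017334 was 3.92 (0.0545) at a pseudocount of 0.1, 3.57 (0.231) with no filter and 3.69 (0.0934) without P5, and that of Sik1 4.57 (0.0987) with no filter. With a library left out the differences ranged from 2.97 to 3.89, 2.86 to 4.28 and 4.13 to 5.01. The cause of these losses was not tested, except that more transcripts were tested with no filter and fewer libraries entered without P5. Sik1 at P20 against P5 reversed to -2.05 in mid-day levels (0.23 over both times); these levels come from the fit with 2 night effects, which all 8 libraries enter. Depth limits values under about 1 FPKM, such as Creb1, most.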
